A study of Mus musculus with 18 samples.

Results

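The 10 cardiac sarcomere genes described here encode proteins of the thin filament (Actc1, Tpm1, Tnnt2, Tnni1, Tnni3 and Tnnc1) and of the thick filament (Myl7, Myl4, Myh6 and Myh7). They were chosen by name, as 10 of the 20321 genes with expected counts (reads assigned to a gene by RSEM), and all 10 also had a TPM value, a level scaled for transcript length and sequencing depth. With a filter on low counts 9 of the 10 were tested, among 13826 genes. Myh7 was not tested, because too few libraries reached the minimum of the filter for it. Its highest expected count in any library was 31.35.

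The samples were mouse embryonic stem cells of the GFP-Bry line, a single line in which GFP is expressed from the Brachyury locus and marks early mesoderm. On day 3 of differentiation as embryoid bodies, GFP-positive cells were sorted by surface endoglin (Eng, E) and Flk-1 (F) into E+F+ and E+F- cells, and these, or unsorted cells, were reaggregated for 24 h. During reaggregation the cells received 10 µM IWR-1, an inhibitor of canonical Wnt signalling, or the vehicle DMSO. This gave 6 groups (E+F+ with IWR-1, E+F+ with DMSO, E+F- with IWR-1, E+F- with DMSO, unsorted with IWR-1 and unsorted with DMSO) of 3 libraries each, numbered Set 1, 2 and 3 in the labels. The comparisons ask whether the level of each sarcomere gene differed between IWR-1 and DMSO within a population, and between populations within a treatment.

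In a sarcomere, myosin of the thick filament pulls on actin of the thin filament, and troponin and tropomyosin on the actin make that pull depend on calcium. Heart, skeletal and smooth muscle use partly different genes for these proteins, and the embryonic heart expresses several isoforms that are later confined to one chamber or replaced. Inhibition of canonical Wnt signalling after mesoderm has formed is known to favour cardiac differentiation of embryonic stem cells.

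Libraries held 19725500 to 26649631 expected counts. RNA came from whole reaggregates, so that fewer cells of a type and less RNA per cell cannot be told apart in these values. The E+F+ libraries carried Gata1, a factor of the erythroid lineage, at 42.48 to 102 TPM with IWR-1 and 33.07 to 93.05 TPM with DMSO, and the E+F- libraries at no more than 3.57 TPM. T, the Brachyury gene, was the reverse, at no more than 0.59 TPM in E+F+ and at 160 TPM or more in E+F- libraries. Kdr, the gene of Flk-1, went against the gate at the RNA level 24 h after the sort, at 18.91 to 24.74 TPM in E+F+ cells with IWR-1, against 29.10 to 105 TPM in E+F- cells with IWR-1, and at 7.69 to 13.37 TPM in E+F+ cells with DMSO, against 25.15 to 75.31 TPM in E+F- cells with DMSO. The populations are therefore named by their sort gate. Both Set 3 libraries of E+F- stood apart from the other 4 on the second principal component (-45.87 with IWR-1 and -22.07 with DMSO, against 40.19 to 47.59), and values without Set 3 are given beside results that rest on it.

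Other genes of differentiated cardiomyocytes were low. For the 9 other markers of cardiomyocytes examined (Myl2, Myl3, Ttn, Actn2, Mybpc3, Nppa, Nppb, Ryr2 and Pln), the summed level was 2.33 to 14 TPM in a library, with 1 to 5 of the 9 listed at 0. Pln, phospholamban, was listed at 0 in 17 of 18 libraries, Ttn, titin, did not exceed 0.02 TPM, and the highest of the 9 in any library was Mybpc3, myosin-binding protein C, at 5.01 TPM.

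Among the 10 members, levels per transcript length ranged widely. Tpm1, alpha-tropomyosin, had a median of 776 TPM over the 18 libraries and made up 50.9 to 93.7% of the summed TPM of the 10 genes. Tpm1 also has smooth muscle and non-muscle isoforms, which a value for the whole gene does not separate. The medians of Tnnc1, Tnni1, Myl7 and Myl4 were 30.9, 26.5, 21.5 and 20.1 TPM, and those of Tnnt2, Actc1 and Tnni3 were 7.92, 7.52 and 2.58 TPM. Myh6 and Myh7, the alpha and beta cardiac myosin heavy chains, had medians of 0.210 and 0.0450 TPM.

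**Figure D1:**
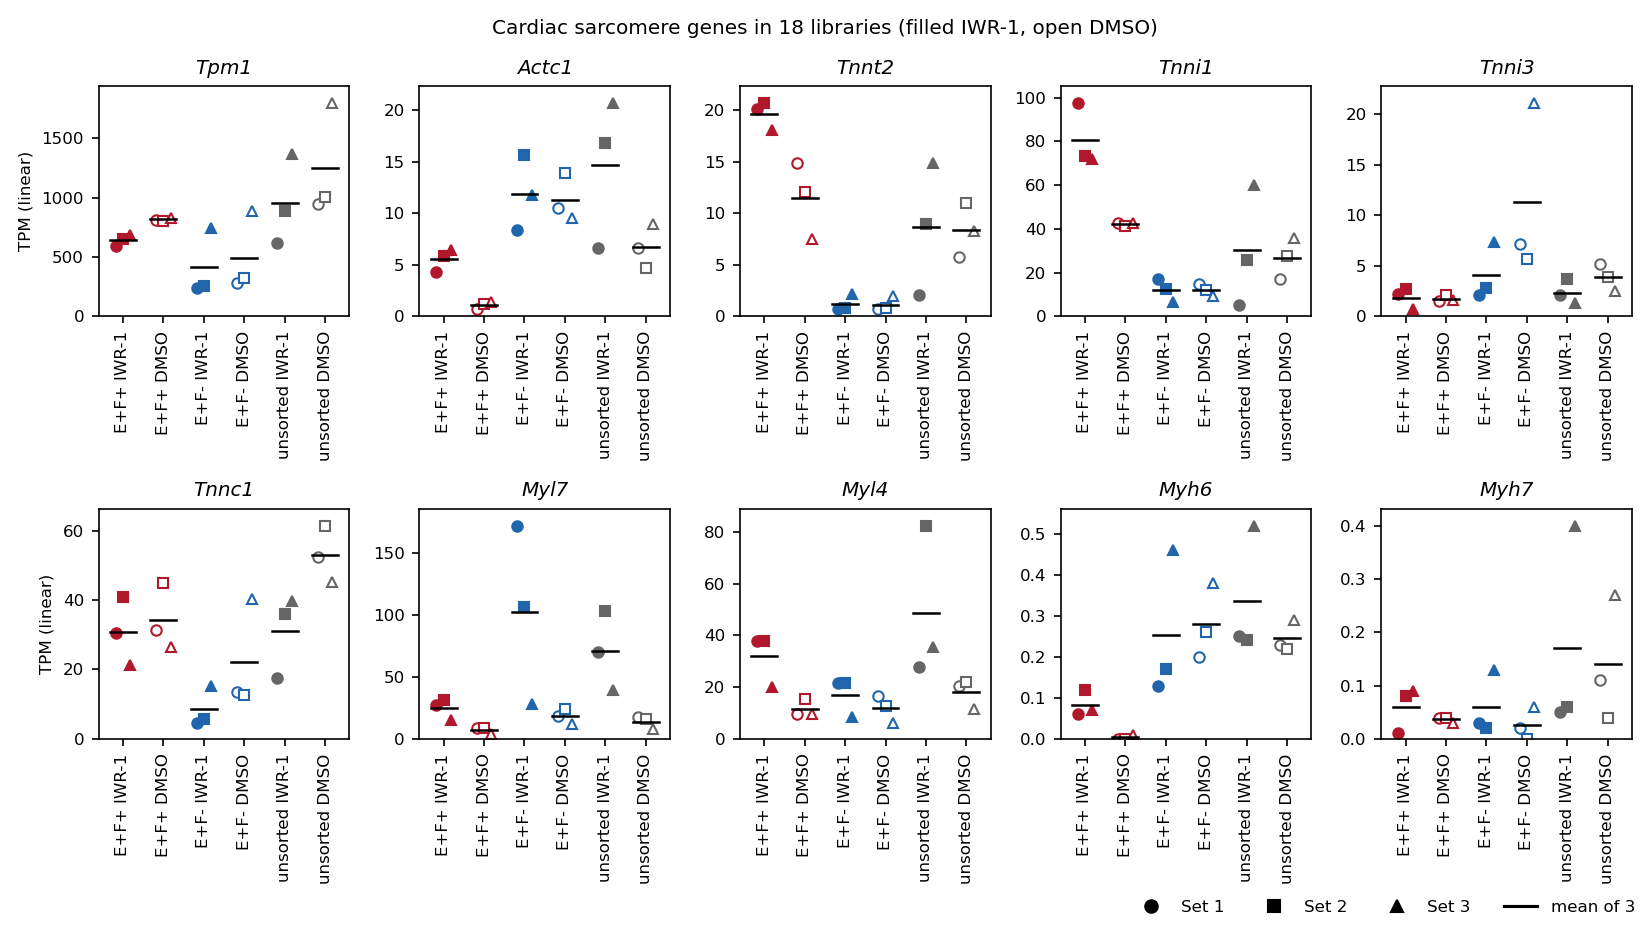
TPM of each sarcomere gene (vertical axis, linear, own scale for each gene) in the 18 libraries by group (horizontal axis). Filled points are IWR-1 and open points DMSO, marker shapes are Sets and lines are means of 3. Myl7 with IWR-1 lay above DMSO in all 3 populations, and Myh6 and Myh7 did not exceed 0.52 and 0.40 TPM. The mean of Tnnt2 was highest in E+F+ cells, where its DMSO libraries overlapped those of unsorted cells.

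The sequence upstream of a transcript start of 3 members is shown because their values carry the comparisons below. Actc1 and Myl7 were called between IWR-1 and DMSO with the Set as a block. Tnnt2 was called in E+F+ against E+F- cells with IWR-1 and with DMSO. Each is the 250 bases before a RefSeq transcript start in build GRCm38.p6, 5' to 3' on the strand of the gene, and capitals mark matches to the motifs searched. The positions are chr2:114052876-114053125 (Actc1, minus strand), chr11:5898783-5899032 (Myl7, minus strand) and chr1:135836084-135836333 (Tnnt2, plus strand). The Actc1 stretch lies inside the annotated span of the gene given below, which begins further upstream. Tnnt2 has another RefSeq start, and the 250 bases before it (chr1:135836739-135836988) held no match.
Actc1: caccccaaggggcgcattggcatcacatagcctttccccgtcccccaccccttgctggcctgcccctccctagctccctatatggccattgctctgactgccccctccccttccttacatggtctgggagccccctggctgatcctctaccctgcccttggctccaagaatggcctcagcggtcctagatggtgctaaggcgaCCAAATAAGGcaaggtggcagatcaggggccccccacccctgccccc
Myl7: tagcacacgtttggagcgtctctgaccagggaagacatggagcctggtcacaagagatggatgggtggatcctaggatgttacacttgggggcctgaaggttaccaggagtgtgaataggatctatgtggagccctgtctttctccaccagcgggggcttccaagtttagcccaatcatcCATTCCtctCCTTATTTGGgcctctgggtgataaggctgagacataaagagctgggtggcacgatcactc
Tnnt2: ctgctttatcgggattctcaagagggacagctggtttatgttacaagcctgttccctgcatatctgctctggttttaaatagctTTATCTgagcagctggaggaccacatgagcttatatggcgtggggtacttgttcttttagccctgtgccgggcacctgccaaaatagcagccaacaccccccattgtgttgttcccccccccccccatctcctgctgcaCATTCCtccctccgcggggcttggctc
The capitals in Actc1 are a CArG box, the motif of serum response factor, 38 bases before the start. Those in Myl7 are an MCAT element (CATTCC) and a CArG box, 65 and 52 bases before the start. Those in Tnnt2 are a GATA motif (AGATAA, here on the opposite strand) and an MCAT element, 161 and 22 bases before the start. Both strands were searched, for these and for MEF2, TCF/LEF (CTTTGA) and TATA box motifs, and of 32851 mouse promoters of the same length 1.47% held a CArG box, 12.6% an MCAT element, 9.99% the GATA motif and 13.8% the TCF/LEF motif. A match describes the letters and not binding. The TCF/LEF letters were present before Tnni1, Tnni3 and Myh6.

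Between IWR-1 and DMSO, Myl7 showed the same order in every population. Myl7, the atrial regulatory light chain of myosin, is expressed throughout the early heart tube and lies at chr11:5896637-5898782 on the minus strand. In E+F- cells it was at 172, 107 and 27.78 TPM with IWR-1 (Sets 1, 2 and 3), against 18.64, 24.35 and 12.11 TPM with DMSO. In unsorted cells it was at 70.52, 104 and 39.33 TPM with IWR-1, against 17.36, 16.21 and 7.93 TPM with DMSO. In E+F+ cells it was at 27.15, 31.59 and 15.06 TPM with IWR-1, against 9.07, 8.90 and 3.97 TPM with DMSO. The ranges of IWR-1 and DMSO did not overlap in any population, and Set 3 was the lowest library of all 6 groups.

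The ratio of Myl7 TPM with IWR-1 to that with DMSO within a Set was 9.24, 4.39 and 2.29 in E+F- cells, 4.06, 6.39 and 4.96 in unsorted cells and 2.99, 3.55 and 3.79 in E+F+ cells. In edgeR's quasi-likelihood test without the Set, Myl7 was not called in E+F- cells (log2 fold change 2.57 ± 0.60 SE, adjusted p = 0.0813), unsorted cells (2.36 ± 0.60, adjusted p = 0.181) or E+F+ cells (1.74 ± 0.60, adjusted p = 0.893). Libraries of the same Set deviated together in these comparisons. The block fits each Set as a shift common to all 6 groups of 18 libraries. It does not pair IWR-1 with DMSO within a population, and its SE does not measure the spread of the ratios above. With the Set as a block edgeR called Myl7 higher with IWR-1 in E+F- cells (2.40 ± 0.30, adjusted p = 0.000992) and unsorted cells (2.35 ± 0.30, adjusted p = 0.00476) and did not call it in E+F+ cells (1.76 ± 0.32, adjusted p = 0.0678). Without Set 3 and without the block edgeR also called it in E+F- cells (2.77, adjusted p = 0.00377) and unsorted cells (2.36, adjusted p = 0.0108). Without Set 1 or without Set 2 edgeR called Myl7 in none of the populations.

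Actc1, the cardiac alpha-actin that is also the main sarcomeric actin of the embryo, lies at chr2:114047282-114053548 on the minus strand. In E+F+ cells it was at 4.30, 5.83 and 6.42 TPM with IWR-1, against 0.74, 1.21 and 1.35 TPM with DMSO. The ranges were far apart, and the ratio within Sets was 5.81, 4.82 and 4.76. Its log2 fold change was 2.30 ± 0.43 (edgeR adjusted p = 0.156) without the Set and 2.32 ± 0.36 (edgeR adjusted p = 0.0333) with the Set as a block, in which Actc1 was the 1 gene of 13826 called higher with IWR-1 in these cells (0.00723%).

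In E+F- cells Actc1 was at 8.39, 15.59 and 11.71 TPM with IWR-1, against 10.51, 13.86 and 9.54 TPM with DMSO, and the ranges overlapped (log2 fold change 0.16 ± 0.38, edgeR adjusted p = 0.964). In unsorted cells it was at 6.65, 16.82 and 20.67 TPM with IWR-1, against 6.64, 4.70 and 8.94 TPM with DMSO, level in Set 1 and above DMSO in Sets 2 and 3 (1.14 ± 0.39, edgeR adjusted p = 0.387). The IWR-1 effect in E+F+ cells minus that in E+F- cells was 2.14 ± 0.57 on the log2 scale and was not called (edgeR adjusted p = 0.627, or 0.145 with the Set as a block). The span of Actc1 overlaps that of A530058N18Rik, annotated on the opposite strand. The libraries were not strand-specific, so reads cannot be told apart where exons of these genes overlap, and overlap of exons was not examined.

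Counted over the 9 members tested, edgeR without the Set called 0 in E+F+, 0 in E+F- and 0 in unsorted cells, where it called 0%, 0.521% (0.13% higher and 0.391% lower) and 0.094% (0.00723% higher and 0.0868% lower) of all genes. At an unadjusted p under 0.05 there were 4, 3 and 3 members, beside 695, 1082 and 1201 of all 13826 genes. With the Set as a block edgeR called 1 member in each population, where it called 0.0651%, 1.49% and 0.868% of all genes. DESeq2 also called 1 in each, where it called 0.217%, 1.56% and 1.1% of all genes, and limma on log2(TPM + 1) called 0. The median log2 fold change of the 9 members was 0.97, 0.05 and 0.17, beside 0.01, 0.01 and 0.02 over all genes.

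**Figure D2:**
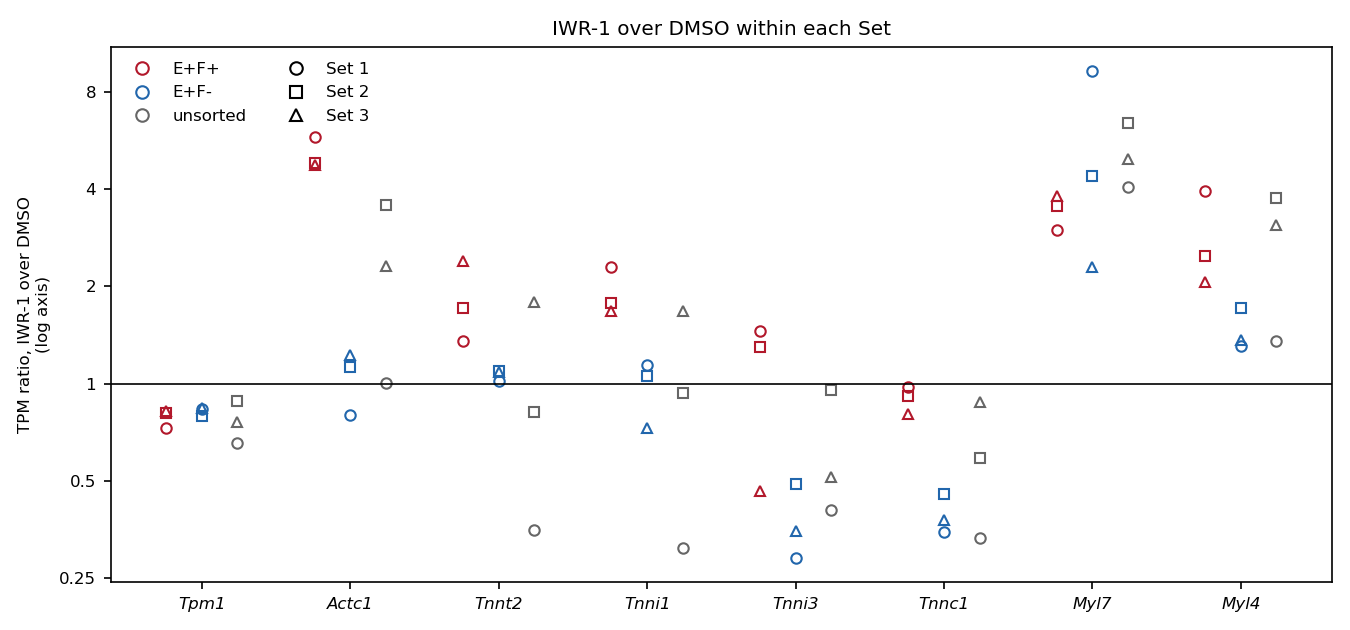
Ratio of TPM with IWR-1 to TPM with DMSO in the same Set (vertical axis, log scale) for 8 sarcomere genes in the 3 populations, 1 point per Set. Myl7 and Myl4 lay above 1 in all 9 pairs and Tpm1 and Tnnc1 below 1 in all 9, and Actc1 was at 4.76 to 5.81 in E+F+ and 0.798 to 1.23 in E+F- cells.

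Myl4, the atrial and embryonic essential light chain of myosin, lies at chr11:104550663-104595753 on the plus strand. It was at 37.78, 37.83 and 19.90 TPM in E+F+ cells with IWR-1, against 9.56, 15.29 and 9.65 TPM with DMSO. In unsorted cells it was at 27.62, 82.39 and 35.40 TPM with IWR-1, against 20.36, 21.94 and 11.45 TPM with DMSO. These ranges did not overlap, whereas in E+F- cells 21.41, 21.55 and 8.41 TPM with IWR-1 overlapped with 16.41, 12.62 and 6.16 TPM with DMSO. No comparison was called, with log2 fold changes of 1.45 ± 0.52 in E+F+, 0.63 ± 0.52 in E+F- and 1.44 ± 0.51 in unsorted cells and adjusted p of 0.914, 0.862 and 0.412 in edgeR. The span of Myl4 overlaps 4 genes annotated on the opposite strand. Where exons overlap, reads cannot be told apart in these unstranded libraries, and overlap of exons was not examined.

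Tnnt2 encodes cardiac troponin T, which anchors the troponin complex to tropomyosin, and Tnni1 encodes slow skeletal troponin I, the inhibitory subunit used by the embryonic heart. Tnnt2 was at 20.12, 20.71 and 18.09 TPM in E+F+ cells with IWR-1, against 14.90, 12.06 and 7.55 TPM with DMSO. Tnni1 was at 97.57, 73.12 and 71.86 TPM in E+F+ cells with IWR-1, against 42.61, 41.29 and 42.83 TPM with DMSO. All IWR-1 libraries of E+F+ cells lay above all DMSO libraries for both genes, but neither was called, with log2 fold changes of 0.76 ± 0.54 and 0.97 ± 0.55 and adjusted p of 0.997 and 0.992 in edgeR. In unsorted cells the IWR-1 library lay below that of DMSO in Sets 1 and 2 and above it in Set 3 for both genes.

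Tnni3 encodes cardiac troponin I, the isoform of the mature heart, and Tnnc1 the calcium-binding troponin C of cardiac and slow skeletal muscle. In E+F- cells Tnni3 was at 2.06, 2.77 and 7.40 TPM with IWR-1, against 7.14, 5.66 and 21.12 TPM with DMSO. In E+F- cells Tnnc1 was at 4.64, 5.76 and 15.19 TPM with IWR-1, against 13.38, 12.61 and 40.14 TPM with DMSO. The IWR-1 library was the lower in each Set, and the ranges overlapped, with both Set 3 libraries high. Neither was called, at -1.37 ± 0.58 for Tnni3 and -1.28 ± 0.48 for Tnnc1 on the log2 scale (edgeR adjusted p = 0.547 and 0.444). In unsorted cells Tnnc1 was at 17.46, 36.04 and 39.71 TPM with IWR-1, against 52.36, 61.41 and 45.30 TPM with DMSO, without overlap (-0.78 ± 0.46, edgeR adjusted p = 0.689).

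Tpm1 was the lower with IWR-1 in all 9 pairs, at ratios of 0.654 to 0.882. In E+F+ cells it was at 590.1, 652 and 684 TPM with IWR-1, against 812, 806 and 832 TPM with DMSO. These ranges did not overlap, and the log2 fold change was -0.36 ± 0.44 (edgeR adjusted p = 0.997). Counting members whose IWR-1 and DMSO libraries did not overlap in TPM, 6 of 10 lay above and 1 below in E+F+ cells (7.02% and 5.91% of all genes), 1 above and 0 below in E+F- cells (2.77% and 11.7%), and 2 above and 1 below in unsorted cells (4.14% and 6.8%).

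Between populations the members divided. With DMSO edgeR called 2 of the 9 members higher in E+F+ than in E+F- cells (Tnnt2 and Tnni1) and 3 lower (Actc1, Tnni3 and Myh6), where it called 26.6% of all genes, 12.8% higher and 13.8% lower. With IWR-1 it called 3 higher (Tnnt2, Tnni1 and Tnnc1) and 1 lower (Myl7), where it called 22.5% of all genes, 10.4% higher and 12.1% lower. With the Set as a block edgeR called 8 of the 9 with IWR-1, where it called 31% of all genes. In TPM the E+F+ libraries lay above all E+F- libraries for 2 members and below for 4 with DMSO (13.3% and 29.6% of all genes), and above for 3 and below for 2 with IWR-1 (16% and 19.9%). On the TPM scale the median of all genes was itself at -0.10 log2 in E+F+ against E+F- cells with DMSO, and it was within 0.02 of 0 in the scaling of these tests.

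**Figure D3:**
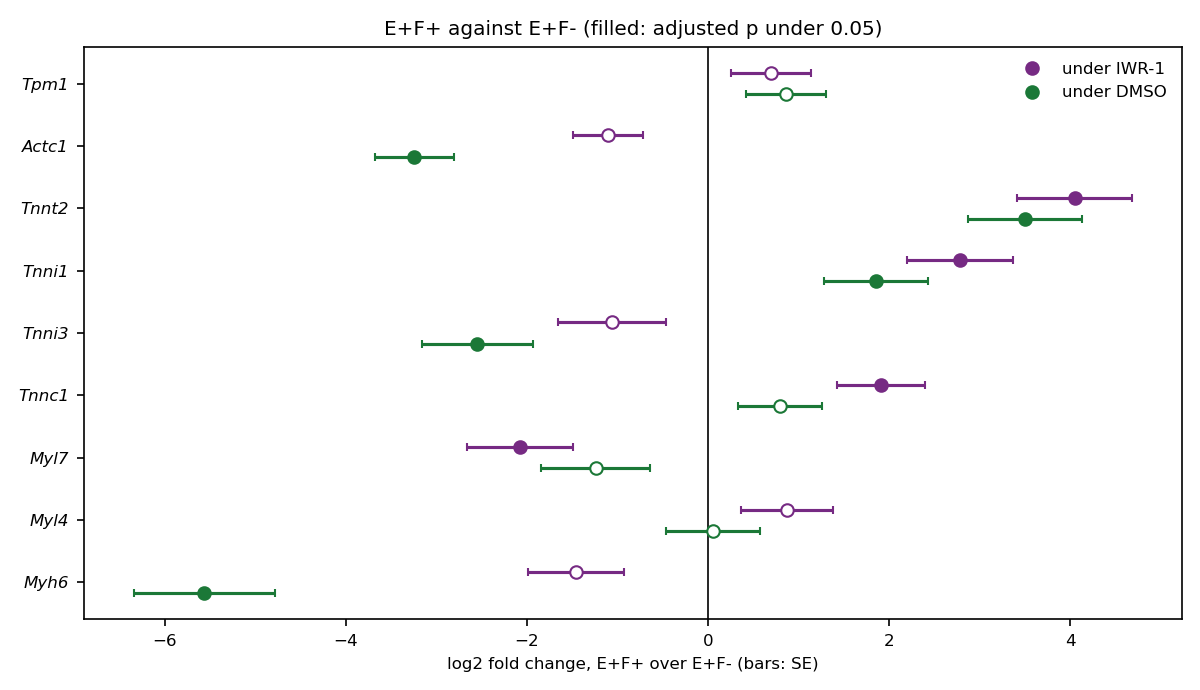
Log2 fold change of E+F+ over E+F- (bars are SE) for the 9 members tested, with IWR-1 and with DMSO; filled points had an adjusted p under 0.05 in edgeR without the Set. Tnnt2 and Tnni1 were higher in E+F+ cells under both treatments and Actc1 was at -1.11 with IWR-1 and -3.24 with DMSO. The Myh6 value with DMSO rests on 1 count in E+F+ cells and does not measure a size.

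Tnnt2 (chr1:135836354-135852260, plus strand) was at 20.12, 20.71 and 18.09 TPM in E+F+ cells with IWR-1, against 0.68, 0.85 and 2.15 TPM in E+F- cells. With DMSO it was at 14.90, 12.06 and 7.55 TPM in E+F+ cells, against 0.67, 0.78 and 1.98 TPM in E+F- cells. The populations were well separated, and Set 3 was the highest E+F- library under both treatments. The log2 fold change was 4.05 ± 0.64 with IWR-1 (edgeR adjusted p = 0.000572), called in all 14 alternatives, and 3.51 ± 0.63 with DMSO (edgeR adjusted p = 0.00108), lost without Set 2 (adjusted p = 0.0530).

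Unsorted cells had Tnnt2 at 2.04, 8.99 and 14.86 TPM with IWR-1 and 5.77, 11.03 and 8.30 TPM with DMSO. In E+F+ against unsorted cells it was not called. The log2 fold change was 1.26 ± 0.55 with IWR-1 (edgeR adjusted p = 0.160) and 0.53 ± 0.55 with DMSO (edgeR adjusted p = 0.570). Tnnt2 was the 1 member that edgeR called in E+F- against unsorted cells, lower under both treatments, at -2.79 ± 0.61 with IWR-1 (edgeR adjusted p = 0.0330; 2.66% of all genes called, 1.19% higher and 1.48% lower) and -2.97 ± 0.62 with DMSO (edgeR adjusted p = 0.00961; 9.48% called, 4.56% higher and 4.92% lower). Both calls were lost without Set 2 and without single libraries (E+F- Set 1 or 2 under either treatment, unsorted Set 2 or 3 with IWR-1), with a highest adjusted p of 0.622 with IWR-1 and 0.346 with DMSO in edgeR. With the Set as a block edgeR also called Tpm1 (-1.31 ± 0.26, adjusted p = 0.00863), Tnnc1 (-1.84 ± 0.44, adjusted p = 0.0191) and Myl4 (-1.45 ± 0.33, adjusted p = 0.0152) lower in E+F- than in unsorted cells with IWR-1, where it called 12.4% of all genes. Without Set 3 edgeR also called Tnnc1 lower (-2.26 with IWR-1, adjusted p = 0.00851, and -2.13 with DMSO, adjusted p = 0.00644), as well as Tpm1 (-1.58 with IWR-1, adjusted p = 0.00228, and -1.74 with DMSO, adjusted p = 0.000962). Over all Sets these log2 fold changes were -1.84 ± 0.48 and -1.34 ± 0.47 for Tnnc1 and -1.22 ± 0.45 and -1.41 ± 0.45 for Tpm1, none of them called (adjusted p = 0.0522, 0.0811, 0.132 and 0.0591 in edgeR).

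Tnni1, next to Tnnt2 on chromosome 1 (chr1:135779434-135810989, plus strand), was at 97.57, 73.12 and 71.86 TPM in E+F+ cells with IWR-1, against 17.11, 12.64 and 6.63 TPM in E+F- cells. With DMSO Tnni1 was at 42.61, 41.29 and 42.83 TPM in E+F+ cells, against 14.97, 12.02 and 9.13 TPM in E+F- cells. No E+F+ library reached down to the E+F- range. The log2 fold change was 2.78 ± 0.59 with IWR-1 (edgeR adjusted p = 0.00366), lost without Set 2 (adjusted p = 0.0904), and 1.86 ± 0.57 with DMSO (edgeR adjusted p = 0.0260). The call with DMSO was lost without any single E+F+ or E+F- library and without Set 2 or Set 3, with a highest edgeR adjusted p of 0.204, and the log2 fold change stayed between 1.68 and 2.03 over the 14 alternatives. Against unsorted cells with IWR-1 Tnni1 in E+F+ cells was at 1.53 ± 0.56 on the log2 scale (edgeR adjusted p = 0.0931) over all Sets, and it was called higher without Set 3 (2.53, adjusted p = 0.0171) and in DESeq2 (1.52 ± 0.53, adjusted p = 0.0346; 14.2% of all genes).

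Tnnc1 (chr14:31208312-31211729, plus strand) was at 30.50, 40.85 and 21.31 TPM in E+F+ cells with IWR-1, against 4.64, 5.76 and 15.19 TPM in E+F- cells, without overlap, and was called higher (1.92 ± 0.48, edgeR adjusted p = 0.0107). It was no longer called without Set 1 and without Set 2 (highest edgeR adjusted p = 0.165). With DMSO it was at 31.35, 44.74 and 26.56 TPM in E+F+ cells, against 13.38, 12.61 and 40.14 TPM in E+F- cells, where Set 3 of E+F- lay among the E+F+ libraries. The log2 fold change with DMSO was 0.80 ± 0.46 (edgeR adjusted p = 0.222) over all Sets and 1.61 (edgeR adjusted p = 0.0120) without Set 3. Nisch overlaps Tnnc1 on the opposite strand, although no window of 51 bases in the Tnnc1 transcript was shared with another coding transcript on either strand.

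Tpm1 (chr9:67022590-67049406, minus strand) was at 590.1, 652 and 684 TPM in E+F+ cells with IWR-1, against 235, 254 and 747 TPM in E+F- cells. With DMSO Tpm1 was at 812, 806 and 832 TPM in E+F+ cells, against 280.5, 319.9 and 886 TPM in E+F- cells. In Sets 1 and 2 the E+F+ library lay above that of E+F-, and in Set 3 it lay below. The log2 fold change was 0.69 ± 0.44 with IWR-1 (edgeR adjusted p = 0.291), called with the Set as a block (0.88 ± 0.26, adjusted p = 0.0202) and without Set 3 (1.34, adjusted p = 0.00166). With DMSO it was 0.87 ± 0.44 (edgeR adjusted p = 0.163) over all Sets and 1.48 (adjusted p = 0.000853) without Set 3.

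Summed TPM of smooth muscle genes and of primitive erythroid markers was highest in the Set 3 library of every group. The 10 smooth muscle genes were all above 0 in every library, and 6 of them reached 1 TPM in each E+F- library. They summed to 502 TPM in E+F- Set 3 with IWR-1 and 491 TPM with DMSO, against 98.5 to 118 TPM in the other 4 E+F- libraries. The 9 primitive erythroid genes summed to 798 TPM in E+F- Set 3 with IWR-1 and 241 TPM with DMSO, against 5.18 to 19.8 TPM in the other 4, in each of which 8 of the 9 were above 0. In E+F+ cells the erythroid sum was 13190 TPM in Set 3 with IWR-1 and 5815 TPM with DMSO, against 930 to 2258 TPM in the other 4, and the smooth muscle sum was 624 and 482 TPM, against 276 to 360.5 TPM. In unsorted cells the erythroid sum was 3619 TPM in Set 3 with IWR-1 and 3039 TPM with DMSO, against 75.8 to 154 TPM in the other 4, and the smooth muscle sum was 1252 and 1172 TPM, against 264 to 332 TPM. The 5 pluripotent cell markers summed to 977 TPM in E+F- Set 3 with IWR-1 and 378 TPM with DMSO, against 83.3 to 338.5 TPM in the other 4. In E+F+ and unsorted cells Set 3 was not the highest for these markers. The part of cells with any of these markers in the levels of the sarcomere genes, and in the results given without Set 3, was not tested.

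Actc1 lay lowest in E+F+ cells. With DMSO it was at 0.74, 1.21 and 1.35 TPM in E+F+ cells, against 10.51, 13.86 and 9.54 TPM in E+F- cells and 6.64, 4.70 and 8.94 TPM in unsorted cells. The E+F+ libraries lay below all others. Against E+F- cells Actc1 had a log2 fold change of -3.24 ± 0.43 (edgeR adjusted p = 0.000132), called in all 14 alternatives. Against unsorted cells it was -2.49 ± 0.43 (edgeR adjusted p = 0.00424; 10.6% of all genes called, 4.7% higher and 5.85% lower), lost without Set 2 (adjusted p = 0.0866). In TPM the E+F+ libraries lay above all unsorted libraries with DMSO for 1 member and below for 5 (8.59% and 23% of all genes).

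With IWR-1 Actc1 was at 4.30, 5.83 and 6.42 TPM in E+F+ cells, against 8.39, 15.59 and 11.71 TPM in E+F- cells and 6.65, 16.82 and 20.67 TPM in unsorted cells. The E+F+ libraries again lay below all others. Against E+F- cells the log2 fold change was -1.11 ± 0.39 (edgeR adjusted p = 0.0526), and with the Set as a block it was called (-1.09 ± 0.32, adjusted p = 0.0179). Against unsorted cells it was called (-1.34 ± 0.39, edgeR adjusted p = 0.0410; 10% of all genes called, 3.64% higher and 6.41% lower), a call lost without any Set and without any single library but unsorted Set 1 (highest edgeR adjusted p = 0.293).

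Tnni3 (chr7:4518305-4524229, minus strand) was at 1.49, 2.07 and 1.57 TPM in E+F+ cells with DMSO, against 7.14, 5.66 and 21.12 TPM in E+F- cells, without overlap. It was called lower (-2.55 ± 0.61, edgeR adjusted p = 0.00685), also without Set 3 (-1.78, adjusted p = 0.0136), and not without Set 1 (adjusted p = 0.0759). With IWR-1 it was at 2.17, 2.68 and 0.73 TPM in E+F+ cells, against 2.06, 2.77 and 7.40 TPM in E+F- cells, level in Sets 1 and 2 and apart in Set 3. The log2 fold change with IWR-1 was -1.06 ± 0.60 (edgeR adjusted p = 0.228) over all Sets and -0.03 (adjusted p = 0.971) without Set 3. Dnaaf3 overlaps Tnni3 on the same strand, although no window of 51 bases, the read length, in the Tnni3 transcript was shared with another coding transcript.

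Myl7 was at 27.15, 31.59 and 15.06 TPM in E+F+ cells with IWR-1, against 172, 107 and 27.78 TPM in E+F- cells. One E+F+ library lay inside the E+F- range, and the call was lower in E+F+ cells (-2.07 ± 0.58, edgeR adjusted p = 0.0189). It was lost without Set 1, without Set 2 and without any of 3 single libraries (Set 1 or 3 of E+F+, Set 1 of E+F-), with a highest edgeR adjusted p of 0.271. With DMSO Myl7 was at 9.07, 8.90 and 3.97 TPM in E+F+ cells, against 18.64, 24.35 and 12.11 TPM in E+F- cells, without overlap (-1.24 ± 0.60, edgeR adjusted p = 0.143), and it was called without Set 3 (-1.21, adjusted p = 0.0150). Against unsorted cells with IWR-1 it was -1.46 ± 0.58 (edgeR adjusted p = 0.119) without the Set and called with it as a block (-1.43 ± 0.29, adjusted p = 0.00478; 19.5% of all genes) and without Set 3 (-1.49, adjusted p = 0.00801).

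Myl4 had a log2 fold change of E+F+ over E+F- of 0.88 ± 0.51 with IWR-1 and 0.06 ± 0.52 with DMSO, neither called (edgeR adjusted p = 0.241 and 0.951). With the Set as a block it was called higher in E+F+ cells with IWR-1 (0.93 ± 0.33, edgeR adjusted p = 0.0443).

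Myh6 (chr14:54941921-54966927, minus strand) was near the limit of detection. With DMSO the E+F+ libraries held 1 count of Myh6 in all, against 63 in E+F- and 57 in unsorted libraries. The ratios per library total were 0.0143 (exact 95% interval 0.000355 to 0.0824) and 0.0168 (0.000417 to 0.0972), where the intervals cover counting error only. Both were called lower in E+F+ cells in edgeR (adjusted p = 0.000184 and 0.00235), the second not without Set 1, without Set 2 or in limma. With IWR-1 the E+F+ libraries held 21 counts, against 1 with DMSO, a ratio of 22.3 (3.59 to 924.0) that was not called (edgeR adjusted p = 0.275).

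With IWR-1 Myh6 was at 0.06, 0.12 and 0.07 TPM in E+F+ cells, against 0.13, 0.17 and 0.46 TPM in E+F- cells and 0.25, 0.24 and 0.52 TPM in unsorted cells. It was called lower in E+F+ than in unsorted cells (-1.84 ± 0.53, edgeR adjusted p = 0.0387), a call lost without any Set, without any single library but unsorted Set 2 and in limma. Against E+F- cells it was called with the Set as a block (-1.35 ± 0.42, edgeR adjusted p = 0.0238) and not without (-1.46 ± 0.53, adjusted p = 0.0603). Of the 51-base windows of the Myh6 transcript 22.2% also occur in Myh7 (chr14:54970684-54994626, minus strand), so that the division of reads between the heavy chains is uncertain.

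The 3 tests of a difference between IWR-1 effects called 0 of the 9 members in edgeR without the Set, with it as a block and in DESeq2. Of all genes edgeR without the Set called 0.0289% (0.0217% higher) for E+F+ minus E+F- and 0% for E+F+ minus unsorted and 0% for E+F- minus unsorted cells. With the Set as a block the shares in this order were 0.0362%, 0% and 0%, and in DESeq2 0.174%, 0% and 0.0506%. At an unadjusted p under 0.05 the members were 2 for E+F+ minus E+F- (Actc1 and Myh6), 1 for E+F+ minus unsorted (Myh6) and 0 for E+F- minus unsorted cells. Of all 13826 genes there were 539, 155 and 324 at this threshold, in the same order.

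Shares within pairs of isoform genes were also set side by side. Tnni3 made up 1.01 to 3.54% of the summed TPM of Tnni3 and Tnni1 in E+F+ cells with IWR-1, against 10.8 to 52.7% in E+F- cells with IWR-1. With DMSO it made up 3.38 to 4.77% in E+F+ cells, against 32.01 to 69.8% in E+F- cells. The populations did not overlap under either treatment. Myl7 made up 76.8 to 89.0% of the summed TPM of Myl7 and Myl4 in E+F- cells with IWR-1, against 53.2 to 66.3% with DMSO, and 41.8 to 45.5% in E+F+ cells with IWR-1, against 29.1 to 48.7% with DMSO. The E+F- ranges did not overlap and the E+F+ ranges did.

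**Figure D4:**
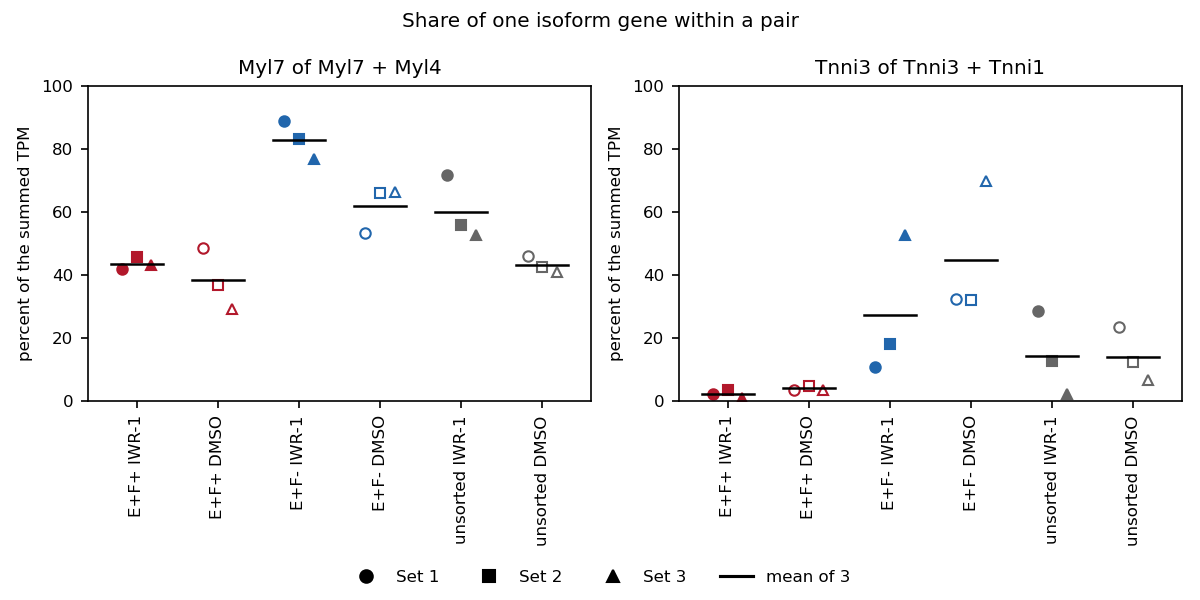
Share of Myl7 in the summed TPM of Myl7 and Myl4, and of Tnni3 in that of Tnni3 and Tnni1 (vertical axes, percent), in each library by group. Filled points are IWR-1, open points DMSO, shapes are Sets and lines means of 3. The Myl7 share in E+F- cells was 76.8 to 89.0% with IWR-1 and 53.2 to 66.3% with DMSO.

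Across the 18 libraries the members did not follow one pattern. On the log2(TPM + 1) scale Pearson's r was 0.864 between Tpm1 and Tnnc1, 0.858 between Tnnt2 and Tnni1, 0.789 between Actc1 and Myh6, 0.617 between Myl7 and Myl4, and -0.629 between Tnni1 and Tnni3. The libraries share populations, treatments and Sets, so these values are descriptions of the 18 libraries. Among 10099 genes with a mean of at least 5 TPM in some group, the 3 most like Tnnt2 were Hlx (0.951), Lama4 (0.946) and Lrrfip1 (0.945), and the 3 most like Tpm1 were Cd44 (0.975), Myo1c (0.965) and Cryab (0.95). Those most like Myl7 were Tmeff1 (0.894), Prss12 (0.891) and Elavl2 (0.865), those most like Actc1 Gpx7 (0.86), Gtf2b (0.86) and Nr4a1 (0.849), and those most like Tnni3 Adcy2 (0.883), Dnaaf3 (0.882) and Efemp1 (0.878), of which Dnaaf3 overlaps Tnni3.

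Other cardiac sarcomere and Z-disc genes were also called in both directions. Of 28 listed 20 were tested, and edgeR called 5 higher and 2 lower in E+F+ than in E+F- cells with IWR-1 (10.4% of all genes were called higher and 12.1% lower), and 3 higher and 2 lower with DMSO (12.8% and 13.8% of all genes). Tmod1, tropomodulin 1, which caps thin filaments and is also part of the red cell membrane skeleton, averaged 6.65 ± 5.07 TPM in E+F+ cells with DMSO, against 0.30 ± 0.251 TPM in E+F- cells (SD; log2 fold change 4.66 ± 0.92, edgeR adjusted p = 0.00195). Nexn, the actin-binding protein nexilin, averaged 5.28 ± 1.38 TPM in E+F+ cells with DMSO, against 1.40 ± 0.568 TPM in E+F- cells (log2 fold change 2.05 ± 0.54, adjusted p = 0.0115 in edgeR). Pdlim5, a Z-disc adaptor, was lower, at 10.97 ± 0.696 TPM in E+F+ cells with DMSO, against 20.2 ± 4.74 TPM in E+F- cells (log2 fold change -0.78 ± 0.17, adjusted p = 0.00354 in edgeR). Des, desmin, was not called (0.14 ± 0.31, edgeR adjusted p = 0.775).

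Of 13 calcium handling, channel and hormone genes 8 were tested, and edgeR called 1 higher and 3 lower in E+F+ than in E+F- cells with IWR-1 (10.4% and 12.1% of all genes), and 1 higher and 4 lower with DMSO (12.8% and 13.8% of all genes). Gja1, connexin 43, averaged 42.3 ± 5.46 TPM in E+F+ cells with DMSO, against 95.1 ± 5.45 TPM in E+F- cells (log2 fold change -1.05 ± 0.16, adjusted p = 0.000300 in edgeR). Among the 16 transcription factors of the cardiac list, all tested, 5 were higher and 4 lower under IWR-1, and 5 higher and 4 lower under DMSO, beside the same shares of all genes. Hand1, a factor of lateral and extraembryonic mesoderm, averaged 597 ± 80.0 TPM in E+F+ cells with IWR-1, against 46.6 ± 7.07 TPM in E+F- cells (log2 fold change 3.68 ± 0.67, adjusted p = 0.00152 in edgeR). Isl1, a factor of second heart field progenitors, averaged 0.413 ± 0.110 TPM in E+F+ cells with DMSO, against 12.8 ± 4.38 TPM in E+F- cells (log2 fold change -4.83 ± 0.47, adjusted p = 1.93e-05 in edgeR). Mesp1, a factor of nascent cardiac mesoderm, averaged 0.270 ± 0.113 TPM in E+F+ cells with DMSO, against 209 ± 9.43 TPM in E+F- cells.

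Of 16 skeletal muscle genes 7 were tested, and with DMSO edgeR called 2 higher and 2 lower in E+F+ than in E+F- cells, where 12.8% of all genes were called higher and 13.8% lower. The fast skeletal troponin genes Tnni2 (2.65 ± 0.74, edgeR adjusted p = 0.0163) and Tnnt3 (1.58 ± 0.50, edgeR adjusted p = 0.0290) were higher, and Acta1, the skeletal alpha-actin, was lower (-3.34 ± 1.07, edgeR adjusted p = 0.0306). Of the 10 smooth muscle genes 1 was lower, Cnn1, calponin 1 (-1.28 ± 0.33, edgeR adjusted p = 0.0107). Of 13 non-muscle relatives of the members 2 were higher, the non-muscle myosin heavy chains Myh9 (1.14 ± 0.26, edgeR adjusted p = 0.00530) and Myh10 (0.67 ± 0.16, edgeR adjusted p = 0.00561). With IWR-1 edgeR called 2 skeletal muscle genes higher and 1 lower, 0 smooth muscle genes, and 2 non-muscle relatives higher. There it called 10.4% of all genes higher and 12.1% lower.

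Between IWR-1 and DMSO edgeR called 0 of the 74 tested genes of these 6 lists in each population. At an unadjusted p under 0.05 there were 6 in E+F+, 10 in E+F- and 7 in unsorted cells, beside 695, 1082 and 1201 of all 13826 genes. Of the 74 genes DESeq2 called 1, 3 and 2, limma 0, 0 and 0, and edgeR with the Set as a block 0, 5 and 1. Of all genes edgeR called 0%, 0.521% and 0.094% in the same order of populations, DESeq2 0.217%, 1.56% and 1.1%, and edgeR with the block 0.0651%, 1.49% and 0.868%, and limma called 1, 130 and 28 genes in all.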

How the data were processed

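RNA was sequenced on an Illumina instrument from unstranded libraries with 51-base reads, and the authors aligned them with Bowtie 0.12.9 to mm10 transcripts and quantified genes with RSEM 1.2.3. The deposited tables hold RSEM expected counts (13 rows occur only there, with 1.32 to 3.32% of the counts) and TPM values that the authors scaled for transcript length and depth. Here expected counts were rounded, filtered with filterByExpr (minimum count 10), scaled by TMM and tested with edgeR 4.0.16 (R 4.3.3) on all 18 libraries, with Benjamini-Hochberg adjustment over 13826 genes and a threshold of 0.05. The scripts were tested on simulated data. Alternatives were RLE scaling, no filter, DESeq2 1.42.0, limma 3.58.1 on log2(TPM + 1), the Set as a block, and each library or Set left out. The block fitted each Set as a shift common to all groups. The study describes the libraries as biological replicates; replicate library pairs differed by more than counting noise (chi-square per degree of freedom 15.6 to 84.2). The labels do not say what a Set is. In 6 of the 9 comparisons all same-numbered libraries deviated together (correlations of deviations from the group means 0.19 to 0.752, each over 0.1). For these 6 the count of members called with the block is given. Blocked values are given for members whose call the block changed, and not for every member. Members and gene lists were chosen with earlier results of these data known. All members are named, with up to 4 genes of each list by smallest adjusted p among genes with at least 5 TPM in some group. Coordinates are GRCm38.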

Additional observations from a re-analysis of the deposited data

How the results depend on the processing

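In the comparisons of IWR-1 with DMSO the count of sarcomere genes called was 0 in E+F+, E+F- and unsorted cells, 1 in each in DESeq2 and 1 in each with the Set as a replicate block, and leaving out replicates gave 0 in E+F+, 0 to 1 in E+F- and 0 to 1 in unsorted cells. For E+F+ against E+F- cells it was 4 with IWR-1 (8 with the block, 1 to 5 when replicates were left out) and 5 with DMSO (7 with the block, 3 to 7 when replicates were left out). Of all genes 22.5% were called there with IWR-1 (31% with the block) and 26.6% with DMSO (35.9% with the block). For E+F+ against unsorted cells it was 2 under both treatments, 1 in limma under both, and 0 to 2 when replicates were left out, and with IWR-1 it was 3 in DESeq2 (adding Tnni1, higher) and 3 with the block (adding Myl7, lower). The share of all genes called there with IWR-1 was 10%, against 14.2% in DESeq2 and 19.5% with the block. For E+F- against unsorted cells it was 1 under both treatments. With IWR-1 that became 2 in DESeq2, 2 in limma, 4 with the block and 0 to 3 when replicates were left out, and with DMSO 3 in DESeq2, 3 with the block and 0 to 3 when replicates were left out. The share of all genes called there with IWR-1 was 2.66%, against 7.46% in DESeq2 and 12.4% with the block. With DMSO it was 9.48%, against 14.1% and 20.5%. Shares of all genes in limma or with replicates left out are not given beside these counts. RLE scaling and the absence of a filter left all 12 counts of sarcomere genes as they were. The tests of a difference between IWR-1 effects gave 0 sarcomere genes under every alternative. The cause of these differences was not tested.

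Over all genes, the count called between IWR-1 and DMSO was 0 in E+F+ cells (30 in DESeq2, 9 with the block), 72 in E+F- cells (216 and 206) and 13 in unsorted cells (152 and 120), and for E+F- against unsorted cells with IWR-1 it was 368 (1032 and 1717). In each of the 3 comparisons between populations with DMSO some same-numbered pair did not correlate over 0.1 (correlations -0.008 to 0.44). Of 18 libraries 14 correlated best with their own number. These were 6 of 6 for E+F+ against E+F-, 5 of 6 for E+F+ against unsorted and 3 of 6 for E+F- against unsorted cells. In the same order the block raised the share of all genes called to 35.9%, 20.3% and 20.5%. For the 32 member fold changes called in edgeR or under some alternative, 353 values under the 14 alternatives kept their direction and side of the threshold, 47 lost the call, 48 gained it and 0 turned sign. Among member fold changes never called, signs did turn, as for Tnnt2 between IWR-1 and DMSO in unsorted cells (7 of 14 alternatives). With CPM in place of TPM, 4 of 18 isoform shares moved by more than their SD, among them the Myl7 share of E+F- cells, at 76.4% with IWR-1 and 51.7% with DMSO. Depth limits Myh6 and Myh7 most, since no library held over 39.65 counts of Myh6 or 31.35 of Myh7. With 3 libraries a group, a missing call does not show that levels were equal.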
